A study of Homo sapiens with 6 samples.

Results

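The genes described here encode RNA-binding proteins that set tissue-specific alternative splicing: NOVA1, NOVA2, RBFOX2, RBFOX3, MBNL1, MBNL2, MBNL3, QKI, MSI2 and SRRM4. They were chosen by gene symbol as a set of families, with no measured value in the rule, though earlier results of these data were known. All 10 were among the 26372 gene symbols of the table. RNA was measured in SH-SY5Y, a line derived from a human neuroblastoma and widely used as a neuronal model, after lentiviral infection and selection with 2 µg/mL puromycin over 2 weeks, followed by maintenance at 1 µg/mL. The groups were shTDP43, which carried a short hairpin RNA against TDP-43 (genotype given as TDP-43 knockdown), and shNC, which carried a control hairpin (genotype given as control), with 3 libraries each. TDP-43, encoded by TARDBP, is itself a splicing regulator that binds DNA and RNA, and it leaves the neuronal nucleus in most amyotrophic lateral sclerosis. The samples hold a single hairpin against TDP-43 in a single cell line, and whether its 3 libraries per group were grown or infected separately is not in the labels. The p-values thus cover the variation among these 6 samples alone, part or all of which may be technical, and effects of the hairpin other than loss of TDP-43 cannot be told apart from it.

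Splicing regulators of this kind bind short sequence elements in pre-mRNA and, depending on where they sit, raise or lower the use of a nearby exon. MBNL (muscleblind-like) proteins carry CCCH zinc fingers and are trapped on expanded CUG repeats in myotonic dystrophy. NOVA proteins and QKI bind RNA through KH domains, RBFOX and MSI (Musashi) proteins through RRM domains, and SRRM4 is a serine- and arginine-rich activator of the very short neuronal exons called microexons. NOVA1, NOVA2, RBFOX3 and SRRM4 are best known from neurons, QKI from myelinating glia, and MSI2 from stem and progenitor cells. Several of these proteins control their own exons and those of their relatives, so the makeup of a family is a measured quantity of interest beside the level of each member. The values are sums per gene in FPKM (fragments per kilobase of transcript, relative to all fragments of the library), and exon use was not analysed here.

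Within the MBNL family the shTDP43 cells held less MBNL2 RNA and more MBNL1 and MBNL3 RNA than the shNC cells. QKI and NOVA2 also rose, MSI2 fell slightly, and NOVA1, RBFOX2 and SRRM4 did not pass the test. RBFOX3 was below the level tested. A gene was tested when its mean over the 6 libraries was at least 1 FPKM, on the scale log2(FPKM + 1), with limma and Benjamini-Hochberg adjustment over all 13263 tested genes, and it passed at an adjusted p under 0.05. In all, 6 of the 9 tested regulators passed, against 38.1% of all tested genes. Of these 6, 4 were higher in shTDP43 (18.5% of all tested genes) and 2 were lower (19.6%). The groups did not overlap in 7 of the 9, against 50.7% of all tested genes. The median log2 fold change of the 9 was 0.09 and that of all tested genes 0.00, and the median absolute log2 fold change was 0.15 and 0.12. Changes under 0.25 in log2 size made up 7 of the 9.

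TARDBP, the targeted gene, had 36.0, 33.1 and 34.8 FPKM in the shTDP43 libraries and 56.1, 56.2 and 56.6 FPKM in the shNC libraries. The groups did not overlap, and the level in shTDP43 was 61.5% of shNC (log2 fold change -0.69, SE 0.03; limma adjusted p = 2.84e-06; exact two-sided permutation test p = 0.1, the lowest that this design allows). The upper quartile lay between 10.5 and 10.7 FPKM in every library. Summed FPKM differed more, from 908329 to 1167810 over the shTDP43 libraries and from 1007940 to 1592930 over the shNC libraries. SNORD3A, a small nucleolar RNA, ran from 8551 to 240958 FPKM in shTDP43 and from 11541 to 552747 FPKM in shNC, and was lowest in shTDP43 replicate 3 and shNC replicate 1. Absolute depth is unknown, and relative depth estimated from the lowest values ran from 1.00 to 1.12 in shTDP43 and from 1.16 to 1.27 in shNC. DBH, the dopamine beta-hydroxylase gene and a defining marker of noradrenergic neuroblastoma cells such as SH-SY5Y, averaged 190.6 ± 3.86 FPKM in shTDP43 and 169.8 ± 1.86 FPKM in shNC (SD, n = 3 each), whereas TH, the tyrosine hydroxylase gene, was near 0 in both groups.

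The MBNL paralogs are shown first by the DNA in front of their genes, because MBNL2 and MBNL3 changed in opposite directions and by more, on the log2 scale, than the other regulators tested. The windows are the 250 bases upstream of the outermost start that RefSeq lists for each gene (GRCh38.p14), in lower case with CpG dinucleotides in capitals. MBNL2 lies on the plus strand at chr13:97141584-97141833, and MBNL3 on the minus strand at chrX:132490036-132490285.
MBNL2: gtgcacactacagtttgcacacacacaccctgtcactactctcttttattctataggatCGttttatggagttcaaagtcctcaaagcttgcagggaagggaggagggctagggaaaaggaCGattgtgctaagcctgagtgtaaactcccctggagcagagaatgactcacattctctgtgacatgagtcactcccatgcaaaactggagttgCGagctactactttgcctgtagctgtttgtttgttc
MBNL3: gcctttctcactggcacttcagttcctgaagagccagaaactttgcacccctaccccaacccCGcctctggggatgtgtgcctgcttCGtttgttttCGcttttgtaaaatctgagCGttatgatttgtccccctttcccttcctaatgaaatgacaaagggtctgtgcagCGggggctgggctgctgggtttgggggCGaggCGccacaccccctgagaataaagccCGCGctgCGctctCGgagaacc
The MBNL2 window held 3 CpG dinucleotides and 46.8% G + C, and the MBNL3 window 11 and 56.4%. The median over the 27303 genes with such a window was 10 CpG dinucleotides and 57.6% G + C. TDP-43 is known to prefer runs of UG in RNA and TG in DNA. The letters TGTGTG, or CACACA for the other strand, occurred 3 times in the MBNL2 window, as overlapping matches in a single run, and once in the MBNL3 window, against at least 1 match in 14.1% of all such windows. Among the other members with a window, that of NOVA1, which did not pass the test, also held a match. The windows of MBNL1, NOVA2 and MSI2, which passed, and of RBFOX3 and SRRM4 held none. A match of letters is a description of the sequence, and its relation to the changes was not tested. RefSeq lists further starts for both genes, 2 in all for MBNL2 and 4 for MBNL3, and the gene sums do not show which start these cells used. Windows of MBNL1 overlap annotated exons and are not printed. No window was listed for RBFOX2 or QKI.

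MBNL2 (GRCh38 chromosome 13, 97141834 to 97394120), the family member on which splicing in the brain most depends in mice, had 15.4, 15.4 and 15.1 FPKM in the shTDP43 libraries and 26.7, 26.3 and 25.8 FPKM in the shNC libraries. Every shTDP43 library lay far below every shNC library, with little spread within either group. The mean fell to 15.3 ± 0.199 FPKM in shTDP43, against 26.3 ± 0.465 FPKM in shNC (SD, n = 3 each), which is 58.2% of the shNC level. The log2 fold change was -0.74 (SE 0.03, 95% interval -0.81 to -0.67; limma adjusted p = 1.09e-06). Of the 13263 tested genes, 195 had a lower log2 fold change, and its absolute size lay at the 98.1th percentile. MBNL2 thus changed about as much in proportion as TARDBP itself.

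MBNL1 (chromosome 3, 152243632 to 152465780), the main family member in muscle, had 17.8, 18.5 and 18.4 FPKM in the shTDP43 libraries and 16.2, 16.3 and 16.4 FPKM in the shNC libraries. The groups did not overlap, and MBNL1 rose to 111.9% of shNC (log2 fold change 0.15, SE 0.03; limma adjusted p = 0.00552; 0.0567 without the pair of libraries low in SNORD3A). MBNL3 (chromosome X, 132369320 to 132490035), known in mice from muscle precursor cells and the placenta, had 3.90, 3.78 and 3.81 FPKM in the shTDP43 libraries and 2.91, 2.59 and 2.84 FPKM in the shNC libraries. It was the least abundant member that was tested, and the groups again did not overlap. MBNL3 rose to 137.7% of shNC (log2 fold change 0.35, SE 0.06; limma adjusted p = 0.00275), and 437 tested genes had a higher log2 fold change.

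Genes that overlap MBNL1 and MBNL3 bear on these values, because how strand was used in counting is not stated. MBNL1-AS1, an antisense RNA, was near 0.3 FPKM in both groups, with means of 0.285 FPKM in shTDP43 and 0.287 FPKM in shNC. RAP2C-AS1, a long noncoding RNA whose span overlaps MBNL3, averaged 2.62 FPKM in shTDP43 and 3.12 FPKM in shNC, close to the level of MBNL3 (log2 fold change -0.18; limma adjusted p = 0.129). Whether reads of the pair were kept apart in counting is not known, so the level of MBNL3 is uncertain. LINC00456 within MBNL2 was listed at 0 in every library.

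**Figure D1:**
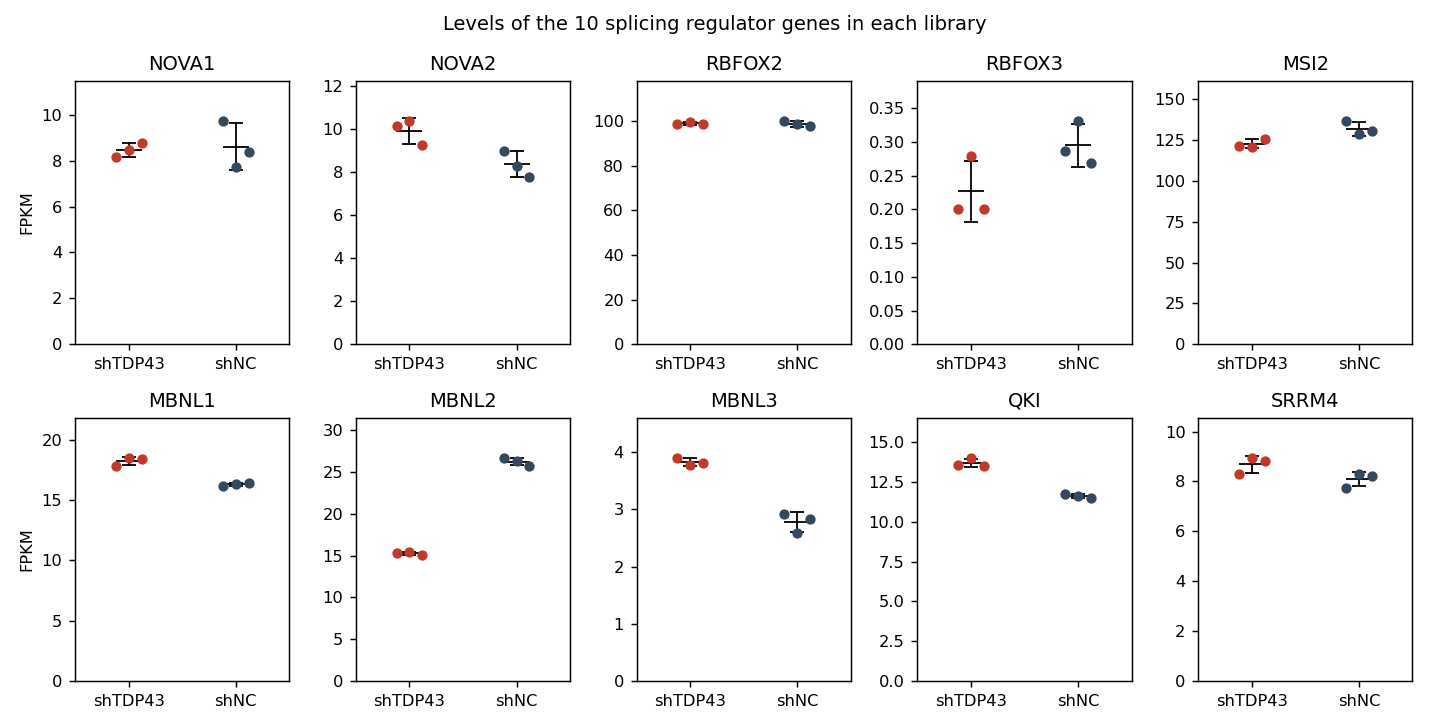
FPKM of each of the 10 genes in each library on linear axes that start at 0 and differ between panels, with shTDP43 on the left and shNC on the right. Points are libraries, the horizontal mark is the mean and the bar its SD (n = 3). The shTDP43 points of MBNL2 lie between 15.1 and 15.4 FPKM, all below the shNC points, while those of MBNL1, MBNL3, QKI and NOVA2 all lie above their shNC points.

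The total of the family fell less than MBNL2 did. MBNL1, MBNL2 and MBNL3 summed to 37.1, 37.7 and 37.3 FPKM in the shTDP43 libraries and to 45.8, 45.2 and 45.0 FPKM in the shNC libraries, so that the shTDP43 sum was 82.4% of the shNC sum. Because FPKM is scaled to transcript length, levels of paralogs can be added and compared on this scale. The shares still depend on the annotation used, which is not stated. The share of MBNL2 in the sum was 41.4%, 40.9% and 40.4% in the shTDP43 libraries and 58.3%, 58.2% and 57.3% in the shNC libraries. MBNL2 was therefore the most abundant MBNL gene in every shNC library and MBNL1 in every shTDP43 library. MBNL1 made up 48.8 ± 0.674% in shTDP43 and 35.9 ± 0.572% in shNC, and MBNL3 10.3 ± 0.243% and 6.14 ± 0.350% (SD, n = 3 each). For each of these 3 shares the groups did not overlap, with an exact two-sided permutation p = 0.1, the smallest possible (0.15 after Benjamini-Hochberg adjustment over the 15 shares computed in 6 families, in which no share could pass).

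**Figure D2:**
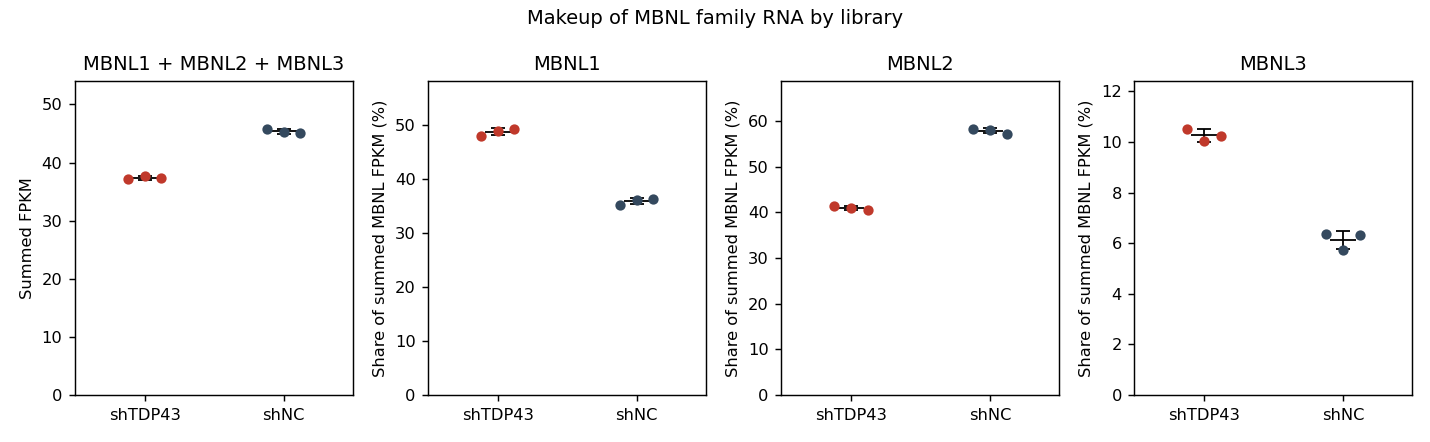
Summed FPKM of MBNL1, MBNL2 and MBNL3 (left panel) and the share of each gene in that sum in percent, by library, on linear axes from 0, with shTDP43 left of shNC. Points are libraries, marks are means and bars SD (n = 3). The MBNL2 share lies between 40.4% and 41.4% in shTDP43 and between 57.3% and 58.3% in shNC, while the shares of MBNL1 and MBNL3 are higher in every shTDP43 library.

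QKI (chromosome 6, 163414718 to 163578592), whose product controls splicing, stability and translation of myelin and cytoskeletal transcripts, had 13.6, 14.02 and 13.5 FPKM in the shTDP43 libraries and 11.8, 11.6 and 11.5 FPKM in the shNC libraries. Each shTDP43 library lay above each shNC library by more than the spread within a group. QKI rose to 117.9% of shNC (log2 fold change 0.22, SE 0.03; limma adjusted p = 0.00165). Markers of glial and Schwann cells did not rise beside it. Only 2 of 12 such markers reached the level tested. Both were lower in shTDP43 (as were 19.6% of all tested genes), PMP22 at 36.5% and S100B at 51.5% of shNC. The call of S100B was lost without shNC replicate 1 or 2 and without the pair of libraries low in SNORD3A (adjusted p from 0.0539 to 0.129). The summed level of the 12 ran from 9.38 to 10.0 FPKM over the shTDP43 libraries and from 20.1 to 21.5 FPKM over the shNC libraries. Most of that sum, and most of its difference, was PMP22 alone, which averaged 6.14 FPKM in shTDP43 and 16.8 FPKM in shNC. OLIG1, OLIG2 and FABP7 were listed at 0 in all 6. In RNA from whole cultures, fewer cells of a type and less RNA per cell cannot be told apart.

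The NOVA paralogs, targets of autoantibodies in a paraneoplastic movement disorder and regulators of synaptic exons, gave unlike results. NOVA2 (chromosome 19, 45933734 to 45973865) had 10.1, 10.4 and 9.24 FPKM in the shTDP43 libraries and 8.997, 8.29 and 7.78 FPKM in the shNC libraries. The groups did not overlap, but the lowest shTDP43 and the highest shNC library lay close together. NOVA2 rose to 118.5% of shNC (log2 fold change 0.22, SE 0.06; limma adjusted p = 0.0224). The call was lost, with adjusted p values from 0.0591 to 0.0736, when shTDP43 replicate 1 or 2 or shNC replicate 2 or 3 was left out. NOVA1 (chromosome 14, 26443090 to 26598033) had 8.14, 8.45 and 8.76 FPKM in the shTDP43 libraries and 9.72, 7.71 and 8.38 FPKM in the shNC libraries. The shNC libraries spanned the whole shTDP43 range, and the log2 difference was -0.02 (95% interval -0.19 to 0.15; limma adjusted p = 0.868). The share of NOVA2 in the summed FPKM of the pair was 54.0 ± 2.26% in shTDP43 and 49.4 ± 2.14% in shNC (SD, n = 3 each; exact two-sided permutation p = 0.2, adjusted 0.231), and the groups overlapped.

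RBFOX2 (chromosome 22, 35738736 to 36028824), the broadly expressed member of its family, was among the most abundant regulators and the most alike between the groups. It had 98.7, 99.8 and 98.7 FPKM in the shTDP43 libraries and 100.0, 98.6 and 97.7 FPKM in the shNC libraries. The groups overlapped fully, and the log2 difference was 0.00 (95% interval -0.04 to 0.05; limma adjusted p = 0.884). RBFOX3 (chromosome 17, 79089345 to 79665571), which encodes the mature-neuron marker NeuN, stood at 0.201, 0.279 and 0.200 FPKM in the shTDP43 libraries and at 0.286, 0.331 and 0.269 FPKM in the shNC libraries. The groups overlapped, and RBFOX3 was not tested at this level. RBFOX1, the neuron- and muscle-restricted paralog outside the set, had 0.202, 0.0954 and 0.0968 FPKM in the shTDP43 libraries and 0.798, 0.959 and 0.914 FPKM in the shNC libraries. Its groups did not overlap, but it too was below the level tested. Estimated depth was higher in the shNC libraries, and its part in values this low was not tested. With no filter on low values RBFOX1 was lower in shTDP43 (log2 fold change -0.74, SE 0.06; limma adjusted p = 0.000379) and RBFOX3 did not pass (limma adjusted p = 0.213). RBFOX2 made up 99.6 ± 0.0546% of the RBFOX sum in shTDP43 and 98.8 ± 0.110% in shNC (SD, n = 3 each).

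MSI2 (chromosome 17, 57255851 to 57701581), a Musashi protein gene whose product acts mainly on translation and also on splicing, was the most abundant of the 10 in both groups. It had 122, 121 and 126 FPKM in the shTDP43 libraries and 137, 129 and 131 FPKM in the shNC libraries. The groups did not overlap, though the gap between them was smaller than the spread within each group. MSI2 fell to 93.0% of shNC (log2 fold change -0.10, SE 0.03; limma adjusted p = 0.0236). The call was lost without shTDP43 replicate 1, shTDP43 replicate 2 or shNC replicate 1 (adjusted p = 0.0662, 0.0725 and 0.0664), and with quantile normalization, where the log2 fold change was -0.05 (adjusted p = 0.194). It was also lost without limma's variance trend (adjusted p = 0.0751) and without the pair of libraries low in SNORD3A (0.0511), so that 6 of 15 alternatives ended it. A noncoding RNA within the span of MSI2, LOC101927557, averaged 3.75 FPKM in shTDP43 and 4.14 FPKM in shNC. MSI1, the paralog best known from neural stem cells, had 16.7, 19.0 and 17.3 FPKM in the shTDP43 libraries and 16.3, 13.8 and 14.5 FPKM in the shNC libraries. MSI1 rose to 118.5% of shNC (log2 fold change 0.23, SE 0.07; limma adjusted p = 0.0249). That call was lost without shTDP43 replicate 2 or 3 or shNC replicate 2 or 3, with adjusted p values from 0.0514 to 0.0787, and with no filter on low values (0.0582). The share of MSI1 in the pair was 12.6 ± 0.864% in shTDP43 and 10.1 ± 0.492% in shNC (SD, n = 3 each).

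SRRM4 (chromosome 12, 118981541 to 119163051), also called nSR100, had 8.30, 8.94 and 8.81 FPKM in the shTDP43 libraries and 7.75, 8.28 and 8.22 FPKM in the shNC libraries. Each shTDP43 library lay above each shNC library, but the lowest of them only just. It stood at 107.4% of shNC without passing (log2 difference 0.09, 95% interval -0.02 to 0.20; limma adjusted p = 0.155). SRRM3, its paralog in the microexon program, averaged 12.8 ± 1.01 FPKM in shTDP43 and 12.7 ± 0.365 FPKM in shNC (SD, n = 3 each), with overlapping groups (log2 difference 0.01; limma adjusted p = 0.935).

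**Figure D3:**
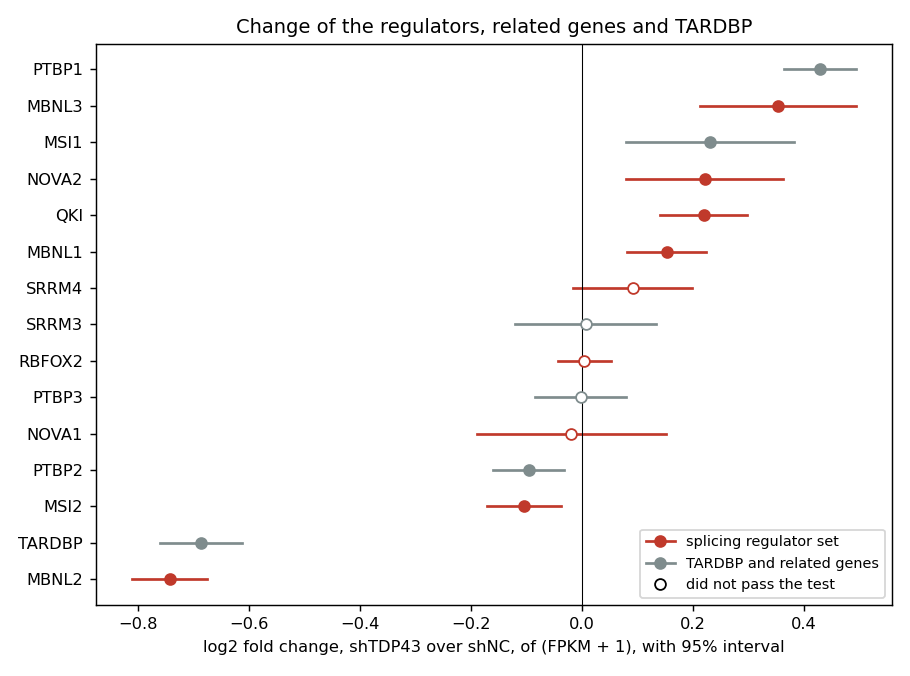
Log2 fold change of (FPKM + 1), shTDP43 over shNC, with its 95% interval from limma, for the 9 tested regulators in red and for TARDBP and the tested genes of related families in grey. Open circles did not pass the adjusted p threshold. MBNL2 lies lowest at -0.74, next to TARDBP at -0.69, and MBNL3 is the highest of the set at 0.35.

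Levels within the set spanned a wide range. From MSI2 down to MBNL3, the highest and the lowest tested member differed 32.0-fold in shTDP43 and 47.4-fold in shNC on the FPKM scale. In shTDP43 the order from the top was MSI2, RBFOX2, MBNL1, MBNL2, QKI, NOVA2, SRRM4, NOVA1, MBNL3 and RBFOX3. In shNC it was MSI2, RBFOX2, MBNL2, MBNL1, QKI, NOVA1, NOVA2, SRRM4, MBNL3 and RBFOX3. Among neighbours in these orders, the library ranges overlapped for SRRM4 and NOVA1 in shTDP43, and for NOVA1 and NOVA2 and for NOVA2 and SRRM4 in shNC. No other neighbours overlapped, so MBNL1 stood above MBNL2 in shTDP43, and MBNL2 above MBNL1 in shNC, beyond the spread of the libraries.

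**Figure D4:**
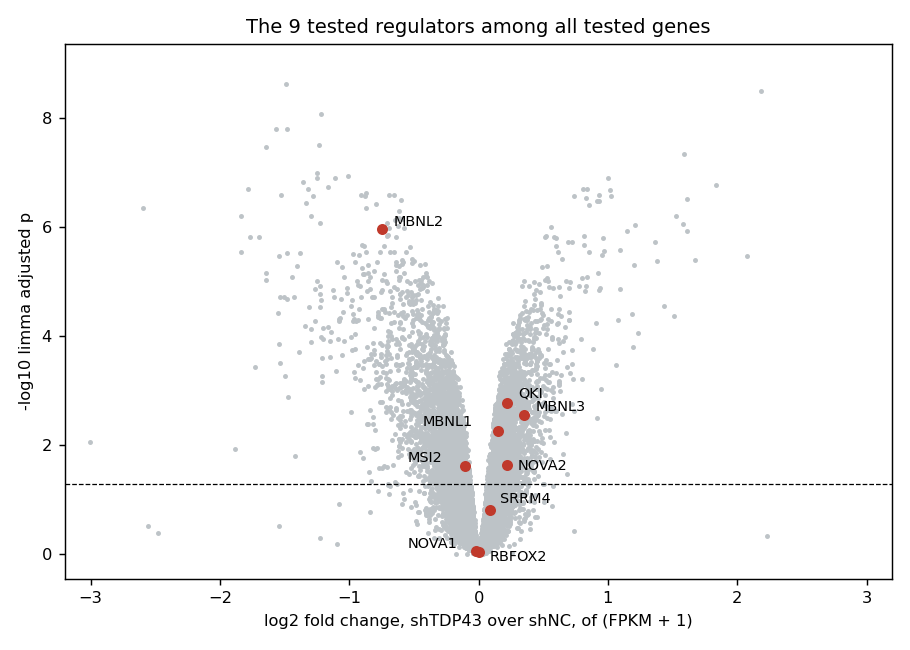
Log2 fold change of (FPKM + 1), shTDP43 over shNC, against -log10 of the limma adjusted p for all tested genes (grey) and the 9 tested regulators (red, named), with the dashed line at an adjusted p of 0.05. The plot is limited to log2 changes within 3.2, which leaves out 9 genes. MBNL2 lies apart from the other regulators, which sit within the dense part of the cloud.

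Other genes of tissue-restricted splicing moved in both directions. Of 28 such genes outside the set, 22 were tested, of which 6 were higher and 5 lower in shTDP43, with a median log2 fold change of 0.02. Among all tested genes 18.5% were higher and 19.6% lower, with a median of 0.00. The number lower was 3 without shNC replicate 1 or 3, without the pair of libraries low in SNORD3A, or without limma's variance trend. With no filter on low values 27 of these genes were tested, of which 4 were higher and 7 lower, with a median log2 fold change of -0.002. PTBP1, which represses neuronal exons in non-neuronal cells and dividing progenitors, rose to 82.5 ± 2.63 FPKM in shTDP43, against 61.0 ± 0.730 FPKM in shNC (SD, n = 3 each; 135.4% of shNC; log2 fold change 0.43, SE 0.03; limma adjusted p = 1.67e-05). PTBP2, its neuronal paralog, fell to 93.4% of shNC (limma adjusted p = 0.0281), a call lost without shTDP43 replicate 3 or any shNC replicate (adjusted p from 0.0560 to 0.0875), without limma's variance trend (0.0636) or without the pair of libraries low in SNORD3A (0.194), and PTBP3 stood at 99.8%. The share of PTBP1 in the PTBP sum was 62.1 ± 1.02% in shTDP43 and 53.7 ± 0.624% in shNC (SD, n = 3 each; exact two-sided permutation p = 0.1, the smallest possible). ELAVL4, a neuronal RNA-binding protein gene of the Hu family, fell to 117.7 ± 4.64 FPKM in shTDP43, against 176.8 ± 1.01 FPKM in shNC (SD, n = 3 each), 66.6% of shNC (limma adjusted p = 4.27e-06). KHDRBS3, a STAR-family KH protein gene like QKI, fell to 12.1 ± 0.0637 FPKM in shTDP43, against 21.2 ± 0.800 FPKM in shNC, 56.9% of shNC (limma adjusted p = 2.84e-06), and its paralog KHDRBS2 was listed at 0 in every library.

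Transcripts that the regulators are known to act on were followed at the gene level. The lists came from general knowledge of each regulator, though with earlier results of these data known. They share a few genes with each other and with marker lists, and a gene sum does not show splicing. Of 12 transcripts listed for MBNL proteins 9 were tested, of which 7 were lower and 1 higher in shTDP43, with a median log2 fold change of -0.18. Among all tested genes 19.6% were lower and 18.5% higher, with a median of 0.00. CAMK2D, a calcium/calmodulin-dependent kinase gene, fell to 70.7% of shNC (limma adjusted p = 0.000321). The others that fell lay between 71.1% of shNC for INSR, the insulin receptor gene, and 89.2% for KIF13A, a kinesin gene, both named after their values were seen. The number lower was 5 without shTDP43 replicate 2 or any 1 of the shNC replicates, and 6 without shTDP43 replicate 3. It was 4 without the pair of libraries low in SNORD3A. The number higher was 0 without that pair or without shNC replicate 1. TNNT2, a troponin gene, rose to 1.89 ± 0.456 FPKM in shTDP43, against 1.01 ± 0.210 FPKM in shNC (SD, n = 3 each; limma adjusted p = 0.0152; 0.0512 without shNC replicate 1 and 0.0998 without both libraries low in SNORD3A). Of 8 transcripts listed for QKI 4 were tested, with 3 lower and 1 higher and a median log2 fold change of -0.27. MAP1B, a microtubule-associated protein gene, fell to 74.8% and CDKN1B, a cell cycle inhibitor gene, to 80.4% of shNC (limma adjusted p = 4.76e-06 and 0.000444), and MAG and MYOCD were listed at 0 in every library. HNRNPA1, a splicing factor gene with many near-identical pseudogenes and so of uncertain level, was the 1 that rose, at 107.6% of shNC. Its call was lost without shTDP43 replicate 1 or 2, without shNC replicate 2, or with quantile normalization.

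Of 12 transcripts listed for RBFOX proteins 10 were tested, with 2 higher and 4 lower and a median log2 fold change of -0.03. Beside this list and those that follow, 18.5% of all tested genes were higher and 19.6% lower. ANK2, an ankyrin gene of the axon membrane skeleton, fell to 60.3% of shNC and NRCAM, a neuronal adhesion gene, to 70.7% (limma adjusted p = 8.42e-07 and 9.79e-06). Among NOVA transcripts 1 of 5 tested genes was lower and 0 were higher, the lower one being AGRN at 61.7% of shNC (limma adjusted p = 5.51e-05). MSI transcripts were 2 higher and 2 lower of 7. DCX, which encodes a protein on the microtubules of migrating neurons, rose to 196.4% of shNC, and CDKN1A, the p21 gene, fell to 26.6% (limma adjusted p = 2.60e-07 and 1.52e-06). SRRM4 transcripts were 2 higher and 1 lower of 10, with EIF4G1, a translation initiation factor gene, at 113.3% and UNC13B, a vesicle priming gene, at 83.9% of shNC (limma adjusted p = 0.00167 and 0.0161). The number higher was 1 without shTDP43 replicate 2 or 3, without shNC replicate 1 or 3, without the pair of libraries low in SNORD3A or without limma's variance trend. The number lower was 2 without shTDP43 replicate 2 or with quantile normalization. REST, the repressor of neuronal genes whose transcript SRRM4 splices, averaged 11.9 ± 0.0710 FPKM in shTDP43 and 12.5 ± 0.129 FPKM in shNC (SD, n = 3 each) with a limma adjusted p of 0.112.

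**Figure D5:**
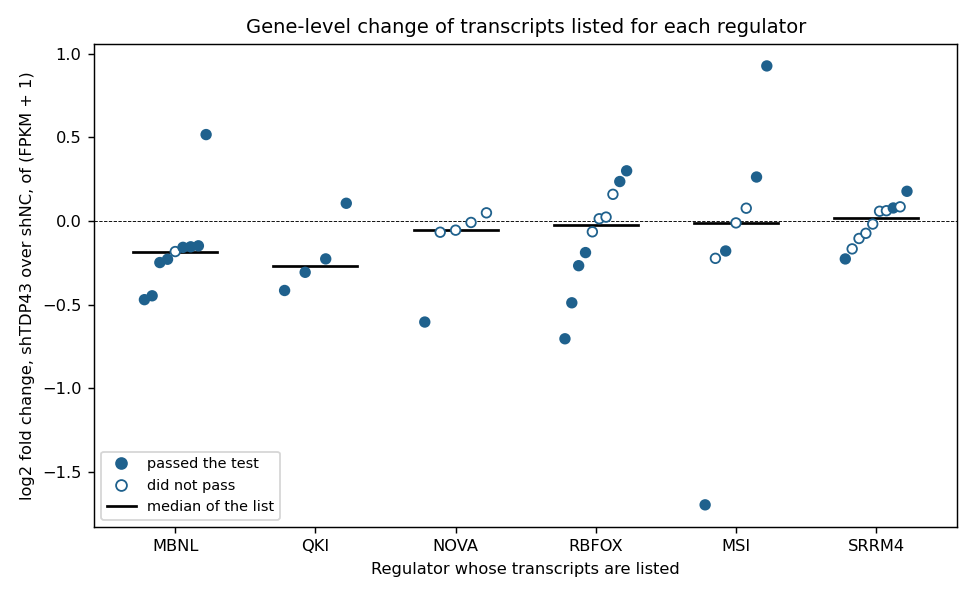
Log2 fold change of (FPKM + 1), shTDP43 over shNC, of each tested gene in the lists of transcripts known for MBNL, QKI, NOVA, RBFOX, MSI and SRRM4. Filled points passed the limma test, open points did not, and black lines are medians. In the MBNL list 7 of 9 points are filled below 0, with a median of -0.18. The median of the QKI list, with 4 tested genes, is -0.27, and those of the NOVA, RBFOX, MSI and SRRM4 lists lie between -0.05 and 0.02.

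Genes beside the regulators on the chromosomes were called about as often as all tested genes. The nearest tested gene on each side of each of the 10 members gave 20 neighbours, of which 5 were higher and 3 lower in shTDP43 (40.0%, against 38.1% of all tested genes). MBNL2 lies 40.0 kb from RAP2A, a small GTPase gene, and 1088.4 kb from UGGT2, a glycoprotein folding sensor gene. RAP2A fell to 86.9% of shNC (limma adjusted p = 0.00208), and UGGT2 rose to 110.4% (limma adjusted p = 0.0127). HS6ST2, a heparan sulfate sulfotransferase gene 136.0 kb from MBNL3, rose to 129.2% of shNC (limma adjusted p = 0.00366), and RAP2C on its other side stood at 102.6% and did not pass (limma adjusted p = 0.628). These neighbours were chosen after the values were seen.

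The tested genes whose levels followed MBNL2 most closely across the 6 libraries were CHGB, IGFBP3 and ADAMTS9, with Pearson correlations of 0.9999, 0.9995 and 0.9995 on the log2(FPKM + 1) scale. CHGB, a secretory granule gene, stood at 33.6% of shNC, IGFBP3, a carrier of insulin-like growth factors, at 19.4%, and ADAMTS9, a secreted protease gene, at 61.8%. SNCAIP, CELF3 and CACNA1D followed MBNL3 most closely, with correlations of 0.998, 0.998 and 0.997, at 200.1%, 118.5% and 163.8% of shNC. These correlations mostly hold the difference between the 2 groups, which many genes share, and are a description of 6 libraries.

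Markers of other cell states moved between the groups as well, beside 18.5% higher and 19.6% lower among all tested genes. Of 12 mesenchymal neuroblastoma markers 9 were tested, with 8 lower and 1 higher in shTDP43, among them COL3A1 at 11.7% and ANXA2 at 28.9% of shNC. Their summed level ran from 364 to 381 FPKM over the shTDP43 libraries and from 373 to 381 FPKM over the shNC libraries, and TWIST1, at 267 ± 8.34 FPKM in shTDP43 and 184 ± 3.23 FPKM in shNC (SD, n = 3 each), was the most abundant of them. Of 14 noradrenergic markers 13 were tested, with 6 higher and 6 lower, including CHGB and RET at 33.6% and 42.1% of shNC. Of 9 muscle markers 2 were tested, with TNNT2 higher (0 without shNC replicate 1 or without the pair of libraries low in SNORD3A) and 0 lower, at a summed level of 3.68 to 4.39 FPKM in shTDP43 and 2.58 to 3.07 FPKM in shNC. Of 9 blood, endothelial and epithelial markers 2 were tested, with KRT18 lower (under the filter without shNC replicate 2), at a summed level of 1.05 to 1.78 FPKM in shTDP43 and 3.01 to 3.73 FPKM in shNC, and HBB was listed at 0 in every library. The part of such cell states in the changes of MBNL2, MBNL3, QKI and NOVA2 was not tested.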

How the data were processed

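Poly(A) RNA of SH-SY5Y cells was sequenced from directional libraries, per the labels' protocols, and the authors deposited FPKM values for 26372 gene symbols in 6 libraries, 3 per group. Per the submitters' processing notes, the tools were TopHat2 2.1.0, SAMtools and Cuffdiff 2.2.1, on build hg38. Of the annotation, strand use, handling of multiply matching reads and scaling, nothing is given in the sources used here. The table holds no counts, so count models were not used and precision rests on the 3 libraries of a group.

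limma 3.58.1 in R 4.3.3 was fitted to log2(FPKM + 1) with group as the only term, variances moderated with a trend on level, a two-sided test and Benjamini-Hochberg adjustment. The 13263 genes averaging 1 FPKM or more were tested, and 13109 were not. This scale understates changes of low genes, so percentages of shNC are ratios of mean FPKM. The fit was tested on simulated data. Relative depth came from the most frequent ratio between libraries over 1655 genes with low values, where at most 8.16% of genes shared that ratio, so it is rough. Shares of paralogs were compared by exact permutation. No libraries held identical values. Positions and promoter windows came from RefSeq (GRCh38.p14), of the build that hg38 also names, and 8 of the 10 members had a window.

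The members and lists were chosen with earlier results of these data known. The genes named are the 10 members, TARDBP, the other paralogs, the 2 called members with the largest change in each list, and the 3 genes most correlated with each of the 2 most changed members. Genes named beyond this rule (neighbours, overlapping RNAs, genes listed at 0, DBH, TH, REST, TWIST1, HNRNPA1 and those the text marks) were chosen after their values were seen. Alternatives covered the pseudocount (0.1 and 0.01 FPKM), the filter (5 FPKM or none), quantile normalization and median scaling, limma without the trend, each library left out in turn, a replicate block, and leaving out both libraries low in SNORD3A, a small nucleolar RNA (shTDP43 replicate 3 and shNC replicate 1). Some genes are not reported here.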

Additional observations from a re-analysis of the deposited data

How the results depend on the processing

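Under all 15 alternatives MBNL2 stayed lower (log2 fold change -0.78 to -0.72; adjusted p at most 0.000292), QKI stayed higher (0.20 to 0.24) and TARDBP stayed lower. MBNL3 stayed higher in the 14 in which it was tested (0.32 to 0.46), being under the filter of 5 FPKM. The number of regulators higher was 3 to 4, in place of 4. The number lower was 1 with quantile normalization, 1 without the variance trend and 1 without both libraries low in SNORD3A, and 1 to 2 without each library in turn. Without both low-SNORD3A libraries MBNL1 did not pass (adjusted p = 0.0567), and the number of all tested genes called was 3323, with fewer libraries in the fit, against 5054. In that setting 4 of the MBNL transcripts and 3 of the other splicing regulators were lower. With the filter at 5 FPKM, fewer mesenchymal markers were tested and 4 were lower, in place of 8, and S100B, TNNT2 and KRT18 were not tested. With no filter 3 NOVA transcripts and 2 blood, endothelial and epithelial markers were lower, in place of 1 each. Without the trend 2 muscle markers were higher, in place of 1, and without both low-SNORD3A libraries 1 MSI transcript was lower, in place of 2. Directions turned among genes that did not pass in any setting. NOVA1, at -0.02, was at 0.0404 without both low-SNORD3A libraries and ranged from -0.0862 to 0.0637 over the fits without 1 library. RBFOX2 ranged from -0.00336 to 0.0138, SRRM3 from -0.0435 to 0.0621 and PTBP3 from -0.0215 to 0.0308 over those fits. The cause of these changes was not tested. Scaling moved the median of all tested genes to at most 0.02. A fit with the replicate number as a replicate block called 4502 genes, 4 regulators higher and 2 lower, with 2 SRRM4 transcripts lower, in place of 1, while MSI1 did not pass (adjusted p = 0.0562). Deviations of same-numbered libraries correlated at -0.07, 0.06 and 0.11, and not every library correlated best with its own number, so the numbers were not taken to pair the samples. Depth limits what RBFOX1 and RBFOX3 can show near 0.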
